A study of Mus musculus with 11 samples.

Results

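This account covers 10 genes in mouse liver, UDP-glycosyltransferases of the Ugt2 and Ugt3 families and Ugdh. The former are Ugt2b1, Ugt2b5, Ugt2b34, Ugt2b35, Ugt2b36, Ugt2b38 and Ugt2a3, and the paired genes Ugt3a1 and Ugt3a2. The 10 genes were taken as the probes, other than controls, whose accession maps to one of these symbols in RefSeq. All 10 were measured, on 12 probes, among 22283 items tested (13963 with a symbol), and each was well above background on all 11 arrays. The arrays were 1-colour (Cy3) Agilent mouse arrays of liver RNA from male mice of a mixed background, mostly B6SJL with some 129S6. The groups were 3 livers labelled β-catΔEx3, 4 labelled β-catΔEx3:Myc and 4 WT livers. β-catΔEx3 is a form of β-catenin that lacks the exon 3 stretch through which it is marked for degradation, and Myc is a growth-promoting transcription factor. The series presents the mice as hepatoblastoma models, hepatoblastoma being a liver tumour of early childhood. Mice were untreated and 22 to 40 days old, and an exact age is given for 3 mice only (β-catΔEx3 replicate 3 at 30 days, β-catΔEx3:Myc replicate 4 at 29 days, WT replicate 4 at 31 days). The labels used here do not name the promoter or the cell type that drives either transgene, and do not say whether tumour or surrounding tissue was sampled, while the design text speaks of tumour-bearing livers for all samples.

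UDP-glucuronosyltransferases are membrane enzymes of the endoplasmic reticulum that join glucuronic acid to steroids, bilirubin, bile acids and drugs, which makes these compounds soluble enough to leave the cell in bile or urine. Their shared co-substrate is UDP-glucuronic acid, which Ugdh, UDP-glucose 6-dehydrogenase, makes from UDP-glucose. The Ugt2 enzymes are abundant in hepatocytes, and the enzymes of the Ugt3 family are known, for their human counterparts, to prefer UDP-sugars other than UDP-glucuronic acid.

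The deposited files give no probe sequences, so the start regions of the genes are shown here instead. RefSeq promoter windows (build GRCm38.p6, 250 bases before to 50 after the annotated start, printed 5′ to 3′ on the gene's strand) were found for 9 of the 10 genes, and Ugt3a2 is named only. Ugdh and Ugt3a1 are shown because their windows held a searched motif and their levels differed from WT, and Ugt2a3 and Ugt2b35 because their levels also differed while their windows held none. Capitals mark motif matches. The windows are chr5:65435793-65436092 on the minus strand for Ugdh, chr5:87337146-87337445 on the minus strand for Ugt2a3, chr15:9279579-9279878 on the plus strand for Ugt3a1 and chr5:87000610-87000909 on the plus strand for Ugt2b35.
Ugdh: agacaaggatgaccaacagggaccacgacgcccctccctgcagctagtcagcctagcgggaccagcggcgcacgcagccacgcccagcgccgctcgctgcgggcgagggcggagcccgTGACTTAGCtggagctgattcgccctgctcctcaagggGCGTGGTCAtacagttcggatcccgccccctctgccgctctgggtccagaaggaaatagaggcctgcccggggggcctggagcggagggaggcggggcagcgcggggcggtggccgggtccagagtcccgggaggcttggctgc
Ugt2a3: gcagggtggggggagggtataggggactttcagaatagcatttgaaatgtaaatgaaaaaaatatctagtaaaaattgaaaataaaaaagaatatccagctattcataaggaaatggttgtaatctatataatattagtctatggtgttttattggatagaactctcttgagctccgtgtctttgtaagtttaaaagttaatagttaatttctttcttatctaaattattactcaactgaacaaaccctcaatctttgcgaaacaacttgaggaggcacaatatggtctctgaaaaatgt
Ugt3a1: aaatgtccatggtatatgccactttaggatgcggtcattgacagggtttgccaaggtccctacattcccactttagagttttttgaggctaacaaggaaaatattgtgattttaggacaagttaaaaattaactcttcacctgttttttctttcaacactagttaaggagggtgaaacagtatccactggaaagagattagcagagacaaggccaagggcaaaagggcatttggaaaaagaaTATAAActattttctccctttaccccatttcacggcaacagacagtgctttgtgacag
Ugt2b35: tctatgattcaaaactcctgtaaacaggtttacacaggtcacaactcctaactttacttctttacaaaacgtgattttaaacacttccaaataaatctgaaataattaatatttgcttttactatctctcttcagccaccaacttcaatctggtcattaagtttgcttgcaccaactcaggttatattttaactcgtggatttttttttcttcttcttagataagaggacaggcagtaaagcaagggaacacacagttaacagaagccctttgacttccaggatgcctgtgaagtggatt
Both strands were searched for 3 motifs. The core of the antioxidant response element, TGACNNNGC, which Nrf2 binds with small Maf proteins, was found at 2 places in the Ugdh window, TGACTTAGC at -132 and, on the opposite strand, GCGTGGTCA at -94, counted from the start. None of the other 8 windows held it, and 12.39% of 32851 mouse promoter windows did. TATAAA was found at -8 in Ugt3a1 only, against 13.62% of all windows. CTTTGAT, a site for the Tcf and Lef factors that β-catenin binds, was in none of the 9 windows and in 3.73% of all windows. No motifs overlapped among the matches. The Ugdh window held 71.0% G and C, and those of the other 8 genes held 31.7% to 43.3%. These matches are letters in a window and were not tested as binding sites.

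The windows of Ugt2b5 and Ugt2b38 are shown because the signals of these genes followed nearly one course over the arrays. The windows of Ugt2b5 (chr5:87140291-87140590, minus strand) and Ugt2b38 (chr5:87424154-87424453, minus strand) were 84.19% identical in a global alignment, and capitals mark the 39 bases of each that have no identical partner in the other.
Ugt2b5: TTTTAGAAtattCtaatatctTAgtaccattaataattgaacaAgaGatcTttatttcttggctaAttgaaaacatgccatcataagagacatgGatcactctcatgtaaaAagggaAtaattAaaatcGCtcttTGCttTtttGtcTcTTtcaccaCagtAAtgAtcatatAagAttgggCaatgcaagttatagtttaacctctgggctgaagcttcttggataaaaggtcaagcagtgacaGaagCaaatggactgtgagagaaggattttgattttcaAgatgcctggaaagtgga
Ugt2b38: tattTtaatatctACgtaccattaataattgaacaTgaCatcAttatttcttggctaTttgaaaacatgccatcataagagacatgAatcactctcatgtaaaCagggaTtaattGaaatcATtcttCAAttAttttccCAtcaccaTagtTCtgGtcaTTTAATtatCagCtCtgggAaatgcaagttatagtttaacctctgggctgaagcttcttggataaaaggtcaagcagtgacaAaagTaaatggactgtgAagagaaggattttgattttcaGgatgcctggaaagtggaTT
Between other pairs of the 9 genes the windows were at most 63.5% identical (Ugt2b36 with Ugt2b38). The window of Ugt2b37, a gene outside these 9, was 87.26% identical to that of Ugt2b38 and 76.54% identical to that of Ugt2b5. High identity was therefore not particular to the pair of Ugt2b5 and Ugt2b38. In the RefSeq order of coding genes, Ugt2b34, Ugt2b1, Ugt2b35, Ugt2b36, Ugt2b5, Ugt2b37, Ugt2a3 and Ugt2b38 follow one another on chromosome 5 with no other coding gene between them. Ugdh lies elsewhere on chromosome 5, and Ugt3a1 and Ugt3a2 are neighbours on chromosome 15.

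Of the genes that the labels name, Myc had a log2 signal of 2.31 to 4.74 on the β-catΔEx3:Myc arrays, 1.14 to 2.21 on the β-catΔEx3 arrays and -0.76 to 2.05 on the WT arrays, where WT replicate 1 held the highest value and the other WT arrays were at or below -0.01. The Ctnnb1 probe, whose place relative to exon 3 is unknown here, was not called in either mutant group (adjusted p = 0.42 and 0.38 against WT). The upper quartile of signal was 227 to 354 units over the arrays, and 49.0% to 53.4% of spots were well above background. Markers of hepatocytes were present on every array (9 measured). Their summed level, in multiples of each array's upper quartile, was 4718 to 5572 in β-catΔEx3 livers, 4158 to 5443 in β-catΔEx3:Myc livers and 6090 to 7398 in WT livers, and 3 and 4 of the 9 were called lower than WT in the 2 mutant groups, while 1, Cps1, was called higher in β-catΔEx3:Myc livers (log2 1.004, adjusted p = 0.047), a call that the slide block ended (0.69, adjusted p = 0.45). Markers of macrophages fell (6 of 6 called in both), with sums of 18.2 to 52.9, 16.1 to 59.4 and, in WT, 213 to 331. Of 7 endothelial markers 4 and 5 were called lower in β-catΔEx3 and β-catΔEx3:Myc livers, and of 7 stellate cell markers 3 and 5. Of 6 measured lymphocyte markers 4 were called lower in each (medians of the list -2.80 and -2.55) and 1 higher in β-catΔEx3:Myc livers, with sums of 6.54 to 7.70, 5.37 to 9.61 and, in WT, 6.84 to 9.82. Of 6 erythroid markers 3 were called lower in β-catΔEx3 livers, and 1 lower and 1 higher in β-catΔEx3:Myc livers, with sums of 41.1 to 154, 34.2 to 877 and, in WT, 513 to 1105. Of 6 neutrophil markers 1 and 2 were called higher and none lower, with sums of 5.54 to 13.2, 8.49 to 80.9 and, in WT, 7.61 to 11.9. The medians of that list were -1.86 in β-catΔEx3 livers, below WT, and 1.64 in β-catΔEx3:Myc livers. Of 6 bile duct markers 1 was called higher in β-catΔEx3 livers and 1 lower in β-catΔEx3:Myc livers. Beside these marker counts, 21.6% of all items were called higher and 15.5% lower in β-catΔEx3 livers, and 25.3% and 17.1% in β-catΔEx3:Myc livers. Only 2 of 7 markers of the kidney tubule and 3 of 7 of the intestinal lining, other tissues rich in these enzymes, passed the filter. In bulk liver fewer cells of a type and less RNA per cell cannot be told apart, and the part of these shifts in the results below was not tested. The arrays lay on 4 slides: WT replicates 1 to 3 on slide 1, β-catΔEx3 replicates 1 and 2 with β-catΔEx3:Myc replicates 1 and 2 on slide 2, β-catΔEx3:Myc replicate 3 on slide 3, and 1 liver of each group on slide 4. With slide as a fixed block, a comparison with WT therefore rests on WT replicate 4 alone, and such blocked values are given with each of the 10 genes and with the other named genes whose calls the block ended. Nothing in the labels says that the livers of a group came from separate litters, so p-values measure the spread between these livers.

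Levels are log2 signals relative to the array's upper quartile, differences are log2 fold changes, and a gene was called at an adjusted p of 0.05 in limma over all items. In β-catΔEx3 livers 3 of the 10 genes were higher than in WT, where 21.6% of all items were called higher, and 2 of 10 were lower, where 15.5% were. The median difference was 0.61 over the 10 genes and 0.10 over all items. In β-catΔEx3:Myc livers the same 3 were higher than in WT (25.3% of all items) and the same 2 lower (17.1%), with a median of 0.07 over the 10 and 0.14 over all items. The comparisons share the WT arrays. The genes that were higher are Ugdh, Ugt2b35 and Ugt2b34, and those that were lower are Ugt3a1 and Ugt2a3. None of the 10 was called between β-catΔEx3:Myc and β-catΔEx3, where 0.108% of all items were called higher and 0.144% lower. Groups did not overlap for 7, 5 and 2 of the 10 genes in the 3 comparisons, against 43.7%, 42.4% and 8.09% of all items.

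**Figure D1:**
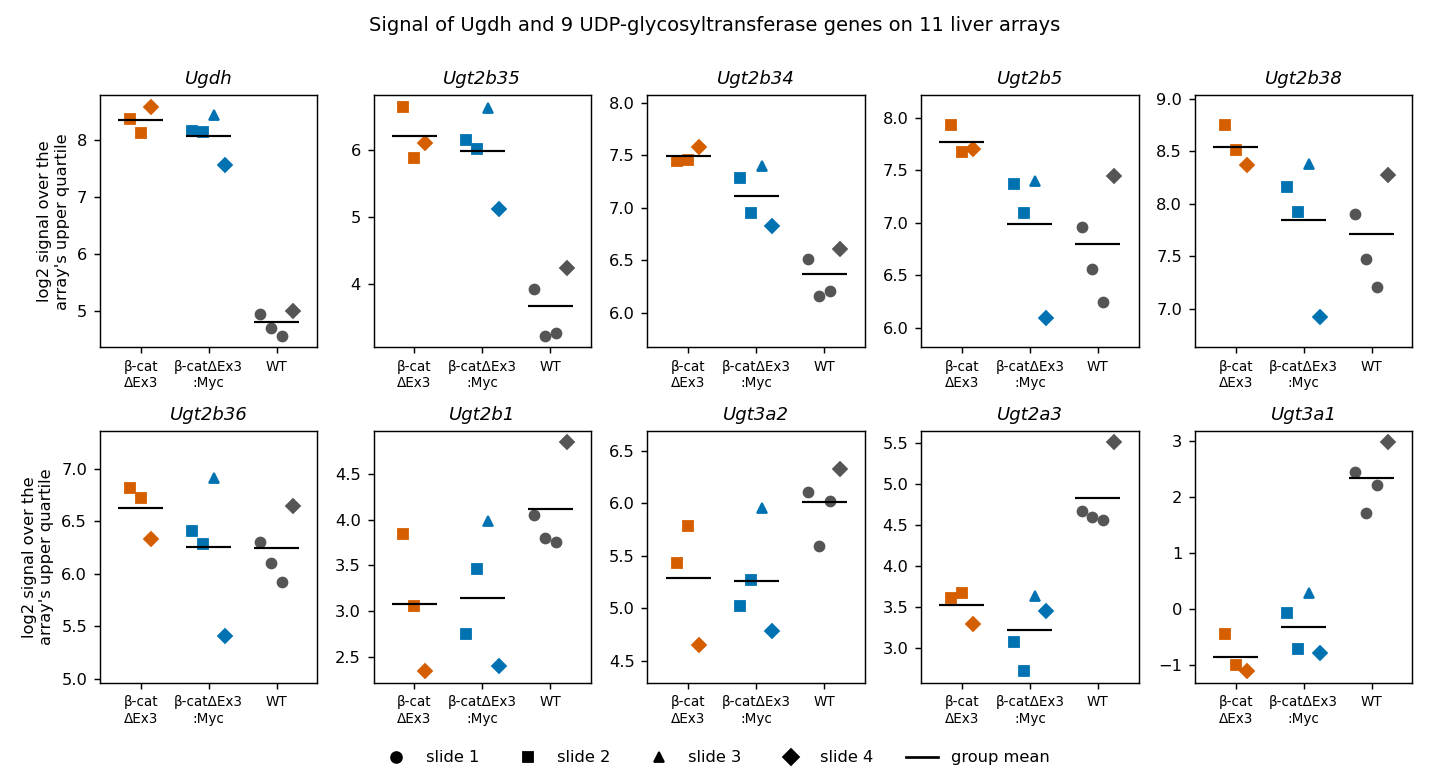
Each panel plots 1 gene, with the log2 signal over the array's upper quartile on the y axis (a separate scale per gene) and the groups β-catΔEx3, β-catΔEx3:Myc and WT on the x axis. Each point is 1 liver, its shape gives the slide, and lines are group means. Ugdh and Ugt2b35 in the mutant groups lie above every WT liver, and Ugt2a3 and Ugt3a1 lie below every WT liver.

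Ugdh, the enzyme that supplies UDP-glucuronic acid, showed the largest difference of the 10 genes from WT in both mutant groups without the slide block, and with it only Ugt3a1 differed more (-4.11 and -3.79). Its log2 signal was 8.36, 8.12 and 8.58 on the β-catΔEx3 arrays, 8.15, 8.13, 8.43 and 7.56 on the β-catΔEx3:Myc arrays, and 4.94, 4.70, 4.56 and 5.005 on the WT arrays. All 7 mutant livers were above all 4 WT livers, with a gap between the lowest mutant and the highest WT liver that was far wider than any group's own range. The difference was 11.7-fold in β-catΔEx3 livers (log2 3.55, SE 0.22, adjusted p = 5.2e-06) and 9.61-fold in β-catΔEx3:Myc livers (log2 3.26, SE 0.20, adjusted p = 4.0e-06). Among all items, 0.776% and 1.05% had a higher log2 difference. With the slide block it was 3.27 (adjusted p = 0.0052) and 2.87 (adjusted p = 0.0076), and on slide 4 alone, with 1 liver each, 3.58 and 2.56. No setting tried ended the call in either group, and the log2 difference ranged from 3.26 to 3.67 and from 2.87 to 3.43 over 22 settings.

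Ugt2b35 was the Ugt2b gene that differed most without the slide block, and with it Ugt2b1 did (-2.37 and -2.58). Its log2 signal was 6.65, 5.89 and 6.11 on the β-catΔEx3 arrays, 6.15, 6.02, 6.63 and 5.13 on the β-catΔEx3:Myc arrays, and 3.94, 3.23, 3.28 and 4.24 on the WT arrays. The lowest mutant liver was β-catΔEx3:Myc replicate 4, and it was still above the highest WT liver, replicate 4. The gene was 5.83-fold higher in β-catΔEx3 livers (log2 2.54, SE 0.37, adjusted p = 6.5e-04) and 4.95-fold higher in β-catΔEx3:Myc livers (log2 2.31, SE 0.34, adjusted p = 5.1e-04). A second, dimmer probe gave log2 differences of 2.86 and 2.58 (adjusted p = 5.0e-04 and 3.9e-04). The slide block ended both calls, at 1.60 (adjusted p = 0.080) and 1.149 (adjusted p = 0.17), and on slide 4 alone the differences were 1.87 and 0.88.

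Ugt2b34, first in the chromosome 5 row, differed by less but with little spread. Its log2 signal was 7.44, 7.46 and 7.58 on the β-catΔEx3 arrays, 7.28, 6.95, 7.39 and 6.82 on the β-catΔEx3:Myc arrays, and 6.51, 6.16, 6.203 and 6.61 on the WT arrays. The 3 groups did not overlap, with the β-catΔEx3 livers highest and the WT livers lowest. The gene was 2.18-fold higher in β-catΔEx3 livers (log2 1.12, SE 0.18, adjusted p = 0.0011) and 1.67-fold higher in β-catΔEx3:Myc livers (log2 0.74, SE 0.17, adjusted p = 0.0054). The difference between the mutant groups, -0.38 in β-catΔEx3:Myc relative to β-catΔEx3, was not called (SE 0.18, adjusted p = 0.52). The slide block ended both calls against WT, at 0.83 (adjusted p = 0.11) and 0.35 (adjusted p = 0.44). In β-catΔEx3:Myc livers, quantile normalization and the authors' matrix also ended the call, at 0.41 and 0.43 (adjusted p = 0.070 and 0.058).

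Ugt2b5 and Ugt2b38 gave nearly one pattern. Ugt2b5 had log2 signals of 7.93, 7.67 and 7.70 on the β-catΔEx3 arrays, 7.36, 7.09, 7.40 and 6.09 on the β-catΔEx3:Myc arrays, and 6.96, 6.56, 6.24 and 7.44 on the WT arrays. The β-catΔEx3 livers lay above all WT livers, while 3 of the β-catΔEx3:Myc livers lay inside the WT range and replicate 4 below it. The difference from WT was 0.97 in β-catΔEx3 livers (SE 0.35, adjusted p = 0.051) and 0.19 in β-catΔEx3:Myc livers (SE 0.32, adjusted p = 0.68), and neither was called. Ugt2b38 had log2 signals of 8.75, 8.51 and 8.37 on the β-catΔEx3 arrays, 8.16, 7.92, 8.38 and 6.92 on the β-catΔEx3:Myc arrays, and 7.90, 7.48, 7.21 and 8.27 on the WT arrays. The β-catΔEx3 livers lay just above the highest WT liver, and the β-catΔEx3:Myc livers overlapped WT. Its differences from WT were 0.83 (SE 0.35, adjusted p = 0.087) and 0.13 (SE 0.32, adjusted p = 0.77), also not called.

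The 2 patterns, each centred on its mean over the 11 arrays, differed by a root mean square of 0.088 on the log2 scale. Ugt2b37, a close relative outside the 10, differed from Ugt2b5 by 0.072 and from Ugt2b38 by 0.102. The next pair among the 10, Ugt2b36 and Ugt2b38, differed by 0.217. Close relatives may share signal on such probes, and how far Ugt2b5, Ugt2b37 and Ugt2b38 are separate measurements was not tested. Their calls against WT in β-catΔEx3 livers turned on the setting. Ugt2b5 was called in 6 of 22 settings and Ugt2b38 in 2, and with the slide block the differences were -0.09 (adjusted p = 0.92) and -0.19 (adjusted p = 0.80). In β-catΔEx3:Myc livers the slide block gave -1.01 for Ugt2b5 (adjusted p = 0.19) and -1.06 for Ugt2b38 (adjusted p = 0.14), also not called. Without WT replicate 4, or without β-catΔEx3:Myc replicate 4, Ugt2b5 was called at log2 1.18 (adjusted p = 0.024) and 0.97 (adjusted p = 0.017), and without the second of these livers Ugt2b38 was called at 0.83 (adjusted p = 0.028). Relative to β-catΔEx3, the β-catΔEx3:Myc livers differed by -0.78 for Ugt2b5 (SE 0.35, adjusted p = 0.48), without overlap, and by -0.70 for Ugt2b38 (SE 0.35, adjusted p = 0.55), where the highest β-catΔEx3:Myc liver passed the lowest β-catΔEx3 liver.

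Ugt2b36, next to Ugt2b35 in the row, was not called in either mutant group. The log2 signal was 6.82, 6.72 and 6.33 on the β-catΔEx3 arrays, 6.40, 6.28, 6.91 and 5.41 on the β-catΔEx3:Myc arrays, and 6.30, 6.10, 5.92 and 6.64 on the WT arrays, and all 3 groups overlapped. The difference from WT was 0.38 in β-catΔEx3 livers (95% interval -0.32 to 1.08, adjusted p = 0.37) and 0.01 in β-catΔEx3:Myc livers (95% interval -0.64 to 0.66, adjusted p = 0.98). Intervals of this width do not show equal levels. With the slide block the differences turned to -0.47 (adjusted p = 0.31) and -1.06 (adjusted p = 0.056), again not called.

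Ugt2b1, whose rat counterpart is known to act on bisphenol A, stood lower in most mutant livers. Log2 signals were 3.84, 3.05 and 2.34 on the β-catΔEx3 arrays, 2.74, 3.46, 3.99 and 2.40 on the β-catΔEx3:Myc arrays, and 4.05, 3.80, 3.75 and 4.85 on the WT arrays. One liver of each mutant group lay inside the WT range and the others below it. The differences, -1.03 (SE 0.45, adjusted p = 0.095) and -0.97 (SE 0.42, adjusted p = 0.086), were not called at the scaling used here. Both were called with quantile normalization (-1.22 and -1.14, adjusted p = 0.041 and 0.036), the other scaling set, taken over probes above background on all arrays (-1.20 and -1.09, adjusted p = 0.047 and 0.046), and the authors' matrix (-1.14 and -1.05, adjusted p = 0.044 and 0.039). With the slide block they were -2.37 (adjusted p = 0.023) and -2.58 (adjusted p = 0.019), both called, and WT replicate 4, on which these values rest, was the highest WT liver. Without β-catΔEx3 replicate 1 the first was called at -1.42 (adjusted p = 0.049), and without β-catΔEx3:Myc replicate 3 the second was called at -1.25 (adjusted p = 0.037).

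Ugt2a3, which lies between Ugt2b37 and Ugt2b38 in the row and whose human counterpart acts on bile acids, was lower in both mutant groups. The signal was, in log2, 3.61, 3.67 and 3.29 on the β-catΔEx3 arrays, 3.07, 2.72, 3.63 and 3.45 on the β-catΔEx3:Myc arrays, and 4.67, 4.59, 4.55 and 5.51 on the WT arrays. All 7 mutant livers were below all WT livers, and WT replicate 4 stood clear above the other WT livers. The gene was 2.47-fold lower in β-catΔEx3 livers (log2 -1.30, SE 0.28, adjusted p = 0.0049) and 3.06-fold lower in β-catΔEx3:Myc livers (log2 -1.61, SE 0.26, adjusted p = 8.2e-04). With the slide block the differences were -1.91 (adjusted p = 0.021) and -2.36 (adjusted p = 0.012), and both calls held in all 22 settings. Among the 10 genes it was the only one for which β-catΔEx3:Myc replicate 4 was not the lowest liver of its group.

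Ugt3a1 fell most of the 10 genes. Its log2 signal was -0.45, -0.998 and -1.12 on the β-catΔEx3 arrays, -0.08, -0.72, 0.29 and -0.80 on the β-catΔEx3:Myc arrays, and 2.46, 1.71, 2.22 and 2.99 on the WT arrays. The highest mutant liver, β-catΔEx3:Myc replicate 3, was well below the lowest WT liver, replicate 2. The gene was 9.19-fold lower in β-catΔEx3 livers (log2 -3.20, SE 0.34, adjusted p = 1.3e-04) and 6.38-fold lower in β-catΔEx3:Myc livers (log2 -2.67, SE 0.32, adjusted p = 1.6e-04). Among all items, 1.25% and 2.18% had a lower log2 difference. The slide block gave -4.11 (adjusted p = 0.0047) and -3.79 (adjusted p = 0.0059), and both calls held in all 22 settings.

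Its neighbour Ugt3a2 stood lower too, but the call depended on the probe, the scaling and the slide block. The brighter probe had log2 signals of 5.43, 5.79 and 4.66 on the β-catΔEx3 arrays, 5.02, 5.27, 5.96 and 4.78 on the β-catΔEx3:Myc arrays, and 6.11, 5.59, 6.03 and 6.33 on the WT arrays. One liver of each mutant group lay inside the WT range. The differences of -0.73 (SE 0.33, adjusted p = 0.11) and -0.76 (SE 0.30, adjusted p = 0.068) were not called. The dimmer probe gave -1.147, -1.17 and -1.11 on the β-catΔEx3 arrays, -1.40, -1.05, -0.71 and -0.998 on the β-catΔEx3:Myc arrays, and -0.19, -0.49, -0.0047 and 0.61 on the WT arrays, with no overlap. In a fit of every probe by itself, a choice made after the data were seen, its differences were -1.13 (SE 0.25, adjusted p = 0.0061) and -1.02 (SE 0.23, adjusted p = 0.0054), both called. The brighter probe was also called with the slide block, at -1.48 (adjusted p = 0.045) and -1.74 (adjusted p = 0.029). Quantile normalization called it at -0.97 and -0.999 (adjusted p = 0.023 and 0.012), the other scaling set at -0.89 in both groups (adjusted p = 0.043 and 0.029), and the authors' matrix at -0.89 and -0.91 (adjusted p = 0.026 and 0.014). In β-catΔEx3:Myc livers it was called at -0.99 without β-catΔEx3:Myc replicate 3 (adjusted p = 0.020) and at -0.76 without β-catΔEx3 replicate 3 (adjusted p = 0.043).

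**Figure D2:**
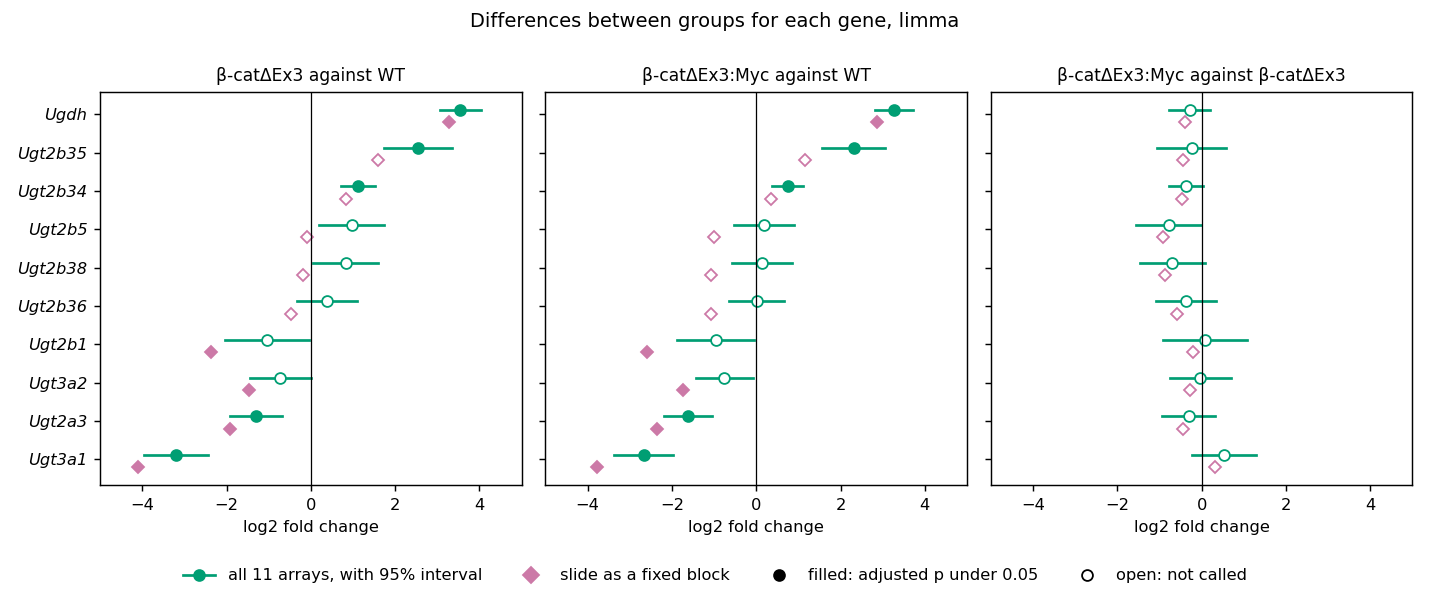
Log2 fold changes (x axis) of the 10 genes (y axis) in the 3 comparisons, with circles and lines for the fit over all 11 arrays with its 95% interval and diamonds for the fit with slide as a fixed block. Filled symbols have an adjusted p under 0.05. Ugdh, Ugt2a3 and Ugt3a1 are filled in both fits against WT, Ugt2b35 and Ugt2b34 only without the block, Ugt2b1 and Ugt3a2 only with it, and no symbol is filled between the mutant groups.

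Between the mutant groups, 8 of the 10 differences were below 0 (β-catΔEx3:Myc lower), as were 48.1% of those of all items, and none was called. The widest were those of Ugt2b5 and Ugt2b38, given above, and the interval for Ugdh ran from -0.77 to 0.20. For Ugt3a1 the difference was 0.53 (95% interval -0.23 to 1.29, adjusted p = 0.67). On slide 2, with 2 livers of each mutant group, the β-catΔEx3:Myc livers differed by -0.57 for Ugt2b5, -0.59 for Ugt2b38, -0.33 for Ugt2b34 and -0.10 for Ugdh, and on slide 4, with 1 of each, by -1.61, -1.45, -0.76 and -1.02 for these genes in the same order.

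Some livers stood high or low in their group for nearly all 10 genes. WT replicate 4 was the highest WT liver for all 10 genes, as it was for 35.4% of all items, with deviations from the WT mean of 0.20 to 0.74. β-catΔEx3:Myc replicate 3 was the highest of its group for all 10 (30.8% of all items), with deviations of 0.28 to 0.84. β-catΔEx3:Myc replicate 4 was the lowest for 9 of 10 (36.4% of all items), with a mean deviation of -0.58. The summed hepatocyte markers were 4933 for that liver, within the 4158 to 5443 of its group, and 7398 for WT replicate 4, the highest of WT. The macrophage sum of 59.4 and the neutrophil sum of 80.9 in β-catΔEx3:Myc replicate 4 were the highest of that group. Replicate 1 of that group held the next highest, 49.3 and 43.8, and 7 of the 10 genes lay above the group mean in it. The part of these cells in the low values of replicate 4 was not tested.

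**Figure D3:**
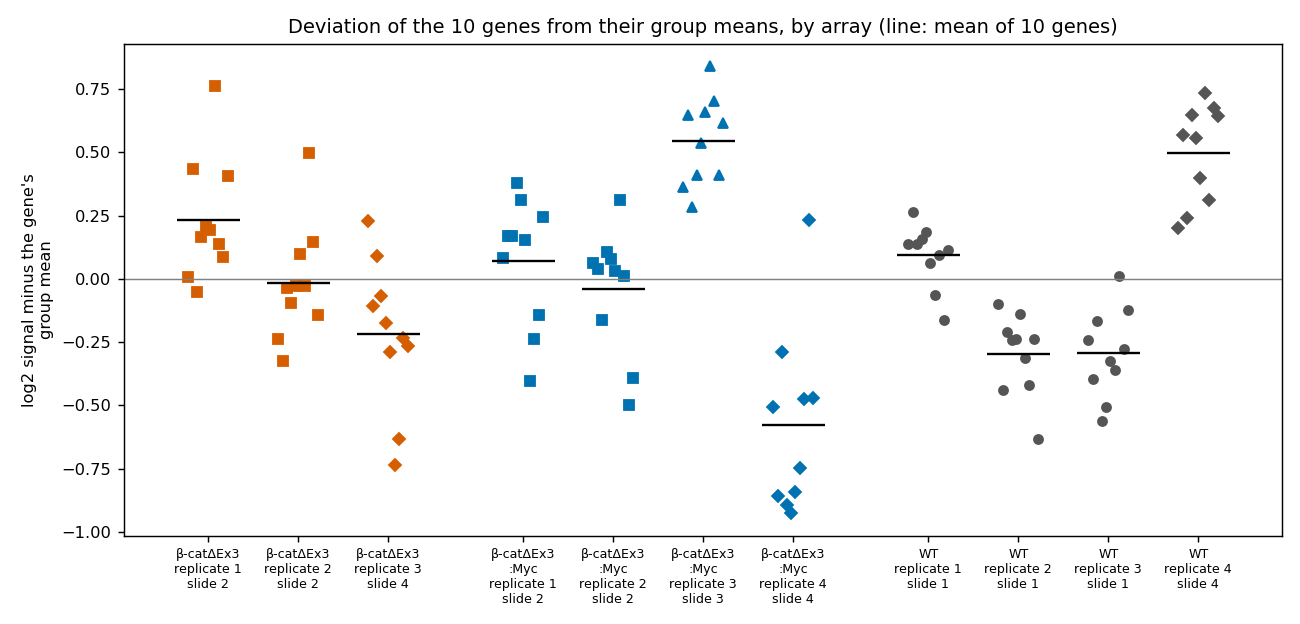
The y axis is the log2 signal of each of the 10 genes minus the gene's mean in its group, and each column on the x axis is 1 liver, with its slide. Points are genes, spread sideways in a fixed order, and lines are the mean of the 10. All 10 genes are above 0 in β-catΔEx3:Myc replicate 3 and WT replicate 4, and all but Ugt2a3 are below 0 in β-catΔEx3:Myc replicate 4.

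Patterns of other named genes over the 11 arrays were compared by the root mean square difference after centring each gene, as a description. The nearest to Ugdh were Car2 (0.268), a carbonic anhydrase whose group means were 5.89 in β-catΔEx3 livers, 5.28 in β-catΔEx3:Myc livers and 2.30 in WT livers, and Slc1a2 (0.276), a glutamate transporter. The nearest to Ugt2b35 was Gsr (0.206), glutathione reductase, with means of 7.36, 6.90 and, in WT, 4.74. Second to Ugt2b35 was Ppfibp2 (0.258). Cyp2d13 and Ly6g6d were nearest to Ugt3a1 (0.400 and 0.470), and Irf2 and Dock8 to Ugt2a3 (0.264 and 0.291). Proc, which encodes protein C, and Dhrs1 were nearest to Ugt3a2 (0.193 and 0.203), and Oaf and Ttc39c to Ugt2b1 (0.283 and 0.307). Tbcd and Shkbp1 were nearest to Ugt2b34 (0.113 and 0.116), and Acsm1 and Glmp to Ugt2b36 (0.149 and 0.163).

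Of 13 further UDP-glycosyltransferase genes, 4 were tested. Ugt1a6b, a phenol-conjugating enzyme, was 1.40-fold higher in β-catΔEx3 livers (log2 0.48, SE 0.17, adjusted p = 0.048), and this call was lost in 16 of 22 settings, the slide block among them (0.15, adjusted p = 0.74). Ugt1a6a, Ugt1a10 and Ugt2b37 were not called in that comparison, and none of the 4 was called in β-catΔEx3:Myc livers. Ugt1a6a, Ugt1a6b and Ugt1a10 share their last exons, so their probes may read one another. Ugt2b37 averaged 6.07 in β-catΔEx3 livers, 5.31 in β-catΔEx3:Myc livers and 5.07 in WT livers. Ugt2a1 and Ugt8a were not well above background on enough arrays, and the other 7, Ugt1a1 among them, were not analysed here.

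Genes that make, move or use UDP-glucuronic acid and its precursors differed in both directions. Of 15, 7 were called higher and 2 lower in β-catΔEx3 livers (all items: 21.6% and 15.5%). In β-catΔEx3:Myc livers 6 were called higher and 3 lower (all items: 25.3% and 17.1%). The medians of the list were 0.54 and 0.53. Ugp2, which makes UDP-glucose, was 2.25-fold higher in β-catΔEx3 livers and 2.11-fold higher in β-catΔEx3:Myc livers (adjusted p = 0.012 and 0.011). Slc35d1, which carries UDP-glucuronic acid into the endoplasmic reticulum, was 2.12-fold and 1.66-fold higher (adjusted p = 0.0044 and 0.017). Gulo, the last enzyme of vitamin C synthesis from glucuronate in the mouse, was 2.29-fold and 2.40-fold higher (adjusted p = 0.0028 and 0.0011), and Akr1a1, which reduces glucuronate, was 2.38-fold and 1.87-fold higher (adjusted p = 0.0024 and 0.0069). Cryl1, a dehydrogenase of gulonate, fell by 3.73 and 4.17 on the log2 scale (adjusted p = 2.3e-05 and 5.4e-06). Ugp2 was not called in β-catΔEx3 livers without β-catΔEx3 replicate 1 (0.87, adjusted p = 0.055), and Slc35d1 was not called in β-catΔEx3:Myc livers without WT replicate 2 or 3 (0.60 and 0.63, adjusted p = 0.052 and 0.051). The slide block ended every call named here except those of Cryl1 (-3.64 and -3.97, adjusted p = 0.0047 and 0.0041). With it the log2 differences in β-catΔEx3 and β-catΔEx3:Myc livers were 0.71 and 0.62 for Ugp2 (adjusted p = 0.45 and 0.51), 0.58 and 0.22 for Slc35d1 (0.30 and 0.70), 0.64 and 0.67 for Gulo (0.30 and 0.27) and 0.75 and 0.25 for Akr1a1 (0.13 and 0.58). Ugp2 and Slc35d1 were named after their values were seen.

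Carriers that take glucuronides out of the hepatocyte or bring organic anions in showed large differences. Of 8, 5 were called higher in each mutant group (all items: 21.6% in β-catΔEx3 and 25.3% in β-catΔEx3:Myc livers). In the same order, 1 and 2 were called lower (all items: 15.5% and 17.1%). Abcc4, an exporter of the sinusoidal side, was 210-fold higher in β-catΔEx3 livers and 120-fold higher in β-catΔEx3:Myc livers (log2 7.71 and 6.91, SE 0.52 and 0.48, adjusted p = 8.9e-06 and 6.8e-06). Abcc2, the canalicular exporter of conjugates, was 6.26-fold and 4.39-fold higher (adjusted p = 1.5e-04 and 2.2e-04). The uptake carrier Slco1a1 was 119-fold lower in β-catΔEx3 livers and 117-fold lower in β-catΔEx3:Myc livers (adjusted p = 8.0e-05 and 3.6e-05), while Slco1a4 was 3.85-fold and 5.89-fold higher (adjusted p = 0.0092 and 0.0012). Slco2b1 was lower in β-catΔEx3:Myc livers (log2 -3.65, SE 0.76, adjusted p = 0.0033), at -3.03 without β-catΔEx3:Myc replicate 1 and -4.25 without replicate 4 of that group. The slide block ended the calls of Slco1a4 with log2 differences of 1.93 and 2.35 (adjusted p = 0.090 and 0.055), against 1.94 and 2.56 without it. In β-catΔEx3:Myc livers it also ended those of Slco2b1, at -3.09 (adjusted p = 0.13), and Abcc2, at 1.49 against 2.13 without it (adjusted p = 0.081).

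Sulfonation, the other main conjugation of steroids and phenols, changed in both directions as well. Of 10 genes, 2 were called higher and 4 lower in β-catΔEx3 livers (all items: 21.6% and 15.5%). In β-catΔEx3:Myc livers 3 were called higher and 3 lower (all items: 25.3% and 17.1%). The oestrogen sulfotransferase Sult1e1 rose by 10.2 and 9.74 on the log2 scale (SE 0.94 and 0.87, adjusted p = 5.2e-05 and 3.0e-05), on a probe above background on 3 of the 4 WT arrays, and by 9.32 and 8.90 without WT replicate 1. Sult2a8 fell by 7.13 and 4.78 on the log2 scale (adjusted p = 4.6e-05 and 2.0e-04), and in β-catΔEx3 livers by 7.86 without replicate 2 and 6.44 without replicate 3 of that group. Sult5a1 was not well above background on any mutant array and was at least 102-fold lower in β-catΔEx3 livers and at least 96.5-fold lower in β-catΔEx3:Myc livers (adjusted p = 6.1e-05 and 1.6e-05). For the bound, each mutant array counted with its Sult5a1 signal or its lowest signal above background, whichever was higher.

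Among 14 measured regulators of such genes, most of them transcription factors, 4 were called higher and 5 lower in β-catΔEx3 livers (all items: 21.6% and 15.5%). In β-catΔEx3:Myc livers 5 were called higher and 4 lower (all items: 25.3% and 17.1%). All these differences were at most 2.23-fold. Nr1i2, the pregnane X receptor, was 1.69-fold and 1.86-fold higher (adjusted p = 0.015 and 0.0037). Nr1h4, the bile acid receptor, was 1.51-fold lower in β-catΔEx3 livers and 2.23-fold lower in β-catΔEx3:Myc livers (adjusted p = 0.018 and 3.1e-04). Nfe2l2, which encodes Nrf2, was not called (log2 -0.18 and -0.33, adjusted p = 0.66 and 0.36). Rxra was called higher in β-catΔEx3 livers on its brightest probe (log2 0.87, adjusted p = 0.026), and the mean of its probes had the opposite sign (-0.23, adjusted p = 0.34). In β-catΔEx3 livers the calls of Nr1i2, Nr1h4 and Rxra each ended without β-catΔEx3 replicate 1 (adjusted p = 0.065, 0.073 and 0.070), and other single livers also ended those of Nr1h4 and Rxra. Quantile normalization and the authors' matrix also ended the Nr1i2 call there (log2 0.58 and 0.56, adjusted p = 0.057 and 0.053). The other scaling set ended that of Rxra (0.70, adjusted p = 0.057). With the slide block, Abcc4, Slco1a1, Cryl1, Sult1e1, Sult2a8 and Sult5a1 stayed called in both groups, and of the factors named above Nr1h4 did in β-catΔEx3:Myc livers (-1.33, adjusted p = 0.036). Cebpa, also among the 14, was called lower in both groups (log2 -0.66 and -0.855) and stayed called with the block (-1.14 and -1.44). Without the block, leaving out any of several single livers ended its call in β-catΔEx3 livers. The block left Nr1i2 at 0.60 and 0.78 (adjusted p = 0.27 and 0.16), and in β-catΔEx3 livers Nr1h4 at -0.72 (adjusted p = 0.16) and Rxra at 0.73 (adjusted p = 0.33).

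**Figure D4:**
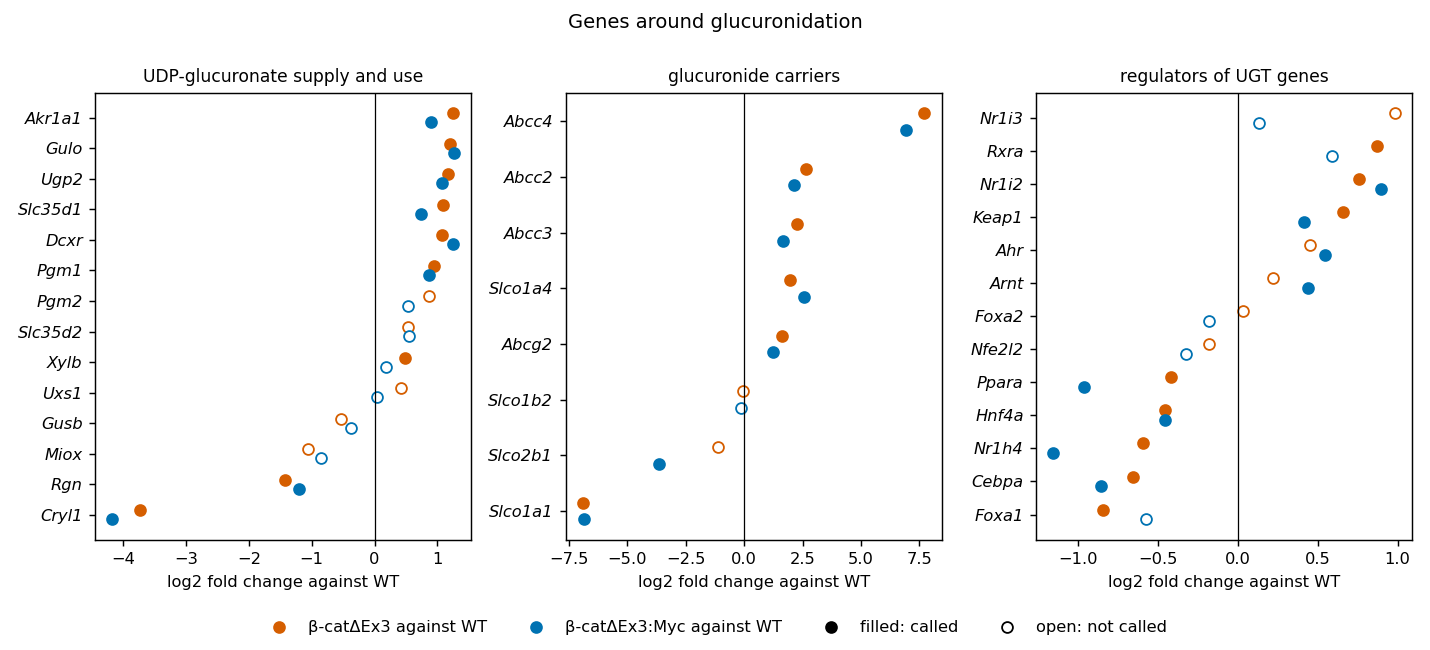
Log2 fold change against WT (x axis, a separate scale per panel) of most measured genes (y axis) of 3 lists, for β-catΔEx3 and β-catΔEx3:Myc livers. Filled circles were called. Among the genes plotted, Abcc4 lies highest and Slco1a1 lowest among the carriers in both groups, Cryl1 lies lowest in the supply list, and Nr1h4 has the largest difference of the third list, -1.16 in β-catΔEx3:Myc livers.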

How the data were processed

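Liver RNA of 11 mice was hybridised to 1 array each. Per the file headers, arrays were read with Agilent Feature Extraction 10.7.1.1, and the authors deposited its processed signal, a background-subtracted linear intensity, with median foreground and background signals and flags. A matrix of log2 values, likewise deposited, served as an alternative. Set against the scanner signals, it was read as holding quantile-normalized processed signals. The median over spots other than controls was taken for β-catΔEx3 replicate 1 alone and was 4.51.

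Here each array's 75th percentile of log2 processed signal over 59305 spots other than controls was subtracted, spots flagged as outliers (137 to 209 an array) were left out, no spot was saturated, and spots of a probe were averaged. The filter kept 29697 of 55681 probes, those flagged as above background on 3 arrays or more. Accessions were named through RefSeq (26582 probes), and the brightest probe stood for a gene. limma 3.58.1 (R 4.3.3) fitted 3 group means with eBayes (8 residual and 2.51 prior degrees of freedom), 2-sided, with Benjamini-Hochberg adjustment over 22283 items. The number of arrays limits the precision. The step was tested on simulated data with 200 of 22257 items changed, drawn once for each comparison. Far larger shares of items were called against WT in the data, so the shares recovered need not hold there. Single draws also do not rank the comparisons. Of log2 changes of 1, 25% were called in the right direction in β-catΔEx3 against WT. The share was 48% in β-catΔEx3:Myc against WT and 41% between the mutant groups. For log2 changes of 2 the shares were 74%, 75% and 74% in the same order. A gene that was not called may therefore still differ.

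Promoter windows were searched and aligned with Biopython 1.88 (match 1, mismatch -1). The genes and lists were chosen with earlier results of these data known. From each list the text names up to 2 called genes with the largest rise and 2 with the largest fall in each comparison with WT, less some left out for length or not reported here, and for each of the 10 genes the first and second of its 3 nearest patterns. Alternatives were quantile normalization, another scaling set, the authors' matrix, normexp (offset 50), 2 other filters, the mean of probes, slide as a fixed or random block, trended robust eBayes, 2-group fits and each array left out. The planned normexp on mean signals used the median signals that the files hold.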

Additional observations from a re-analysis of the deposited data

Results flagged for a closer look

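Among 20 groups of 4 livers tested with Dixon's criterion (10 genes in β-catΔEx3:Myc and in WT), 1 held a liver far from the rest, and chance flags about 1 in 20. It was Ugt2a3 in WT replicate 4, with a log2 signal of 5.506 against 4.666 for the nearest WT liver. Without that liver Ugt2a3 stayed called lower in both mutant groups.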

How the results depend on the processing

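Over 22 settings the number of the 10 genes called was 5 to 7 in β-catΔEx3 livers, 5 to 7 in β-catΔEx3:Myc livers and 0 between the mutant groups. Which genes were called changed with the setting. With the fixed slide block Ugt2b35 and Ugt2b34 were no longer called in either comparison with WT, while Ugt2b1 and Ugt3a2 were called in both. Quantile normalization and the authors' matrix also ended the call of Ugt2b34 in β-catΔEx3:Myc livers. Leaving out any 1 array ended none of the 10 calls against WT. Only genes that were not called turned their sign, apart from Rxra in β-catΔEx3 livers (-0.23 with the mean of probes), and Nfe2l2, also not called, turned in β-catΔEx3 livers with the fixed block (0.0453) and ranged from -0.38 to 0.0374 with 1 array left out. In β-catΔEx3:Myc against WT, quantile normalization gave -0.27 for Ugt2b36, -0.24 for Ugt2b38 and -0.15 for Ugt2b5, the authors' matrix gave -0.23, -0.15 and -0.10 for the same genes, and the fixed slide block gave -1.06, -1.06 and -1.01. For Ugt2b36 the other scaling set gave -0.12 and the random block -0.0551. In β-catΔEx3 against WT, the fixed block gave -0.47 for Ugt2b36, -0.189 for Ugt2b38 and -0.0905 for Ugt2b5. Between β-catΔEx3:Myc and β-catΔEx3, the fixed block gave -0.21 for Ugt2b1, and Ugt3a2 was at 0.00726 with the other scaling set, 0.0226 with normexp, 0.0350 with the mean of probes and 0.10 on its dimmer probe. With 1 array left out, the ranges that crossed 0 were -0.21 to 0.29 for Ugt2b36, -0.0458 to 0.44 for Ugt2b38 and -0.000618 to 0.48 for Ugt2b5 in β-catΔEx3:Myc against WT, and -0.35 to 0.22 for Ugt3a2, -0.30 to 0.45 for Ugt2b1 and -0.45 to 0.0516 for Ugt2b35 between the mutant groups. The cause of these changes was not tested. No paired analysis was possible because the labels give the groups no shared animal or litter numbers. The comparisons with WT rest on 1 WT liver wherever slide is held fixed, and signal not above background limits Sult5a1 to a bound.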
